A study of Mus musculus with 47 samples.

Results

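Genomic imprinting leaves a gene active on the chromosome copy from a single parent. A set of 10 such genes that lie away from the Igf2 domain were followed through ChIP-seq lists of mouse liver, and they are Dlk1, Meg3, Peg3, Peg10, Plagl1, Grb10, Igf2r, Mest, Kcnq1ot1 and Snrpn. They were chosen by name as imprinted genes of 9 chromosome domains. They are 10 genes set beside the 37273 genes of the mm9 annotation, which holds 9 of them and lacks Kcnq1ot1. The values for each are the percent of its span inside H3K27me3 regions, the width of the regions that hold it, and the H3K27ac and H3K4me1 peaks within 10 kb of it.

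Livers came from 7-week-old mice in 4 groups, male and female, with the genotypes Floxed control (Ezh2 f/f) and Ezh1-/-, EZH2f/f, AC+. The latter carry the Alb-Cre transgene (AC), whose albumin promoter is active in hepatocytes, so Ezh2 is removed in hepatocytes whereas Ezh1 is missing from every cell of the body. These double-knockout mice are called DKO here, and both genotypes carry the floxed Ezh2 alleles. Ezh2 stays intact in the other cells of the DKO liver, and fewer cells of a type cannot be told apart from a weaker mark per cell in whole tissue. Each mark was mapped in 4 livers per group, with 3 livers for H3K4me1 in DKO female liver, for 47 samples in all. Each of the 12 deposited lists gives the positions of the regions or peaks found in the reads of a whole group, with no score or read count and with the depth unknown. No value below therefore has a replicate error, no difference could be set against the spread between livers, and a gene outside every region may still carry the mark below the level that was called. Likewise, a gene inside regions of both genotypes may carry the mark at different levels, so coverage gives called extent and not level. The H3K27ac lists also differed in length, with 29359 peaks in control male liver against 49702 to 55930 in the other groups.

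Ezh1 and Ezh2 are the alternative catalytic subunits of Polycomb repressive complex PRC2, which trimethylates lysine 27 of histone H3 (H3K27me3) in broad domains over silent genes. H3K27ac marks active promoters and enhancers, and H3K4me1 marks enhancers in general. Imprinted expression rests first on DNA methylation set in the germ line at imprinting control regions, and PRC2 adds repression along the silent copy in some domains, above all in the embryo and placenta, where long noncoding RNAs such as Kcnq1ot1 and Airn take part. Many imprinted growth genes are turned down in liver after birth. The reads do not tell the maternal from the paternal copy, so a region and an active peak at the same place may lie on different copies or in different cells.

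Promoter sequences from RefSeq (GRCm38.p6) were found for 9 of the 10 genes, all but Peg10. Each reaches from 250 bases before to 50 bases after a start. They form 16 windows, and each window matched mm9 exactly at a single place. Those below are the 5 genes' windows that hold the letters TGCCGC (1 of the 2 near-identical windows of Mest) and that of Kcnq1ot1, which places its start and has an H3K27ac peak within 1 kb of that start in all groups. Capitals show the letters TGCCGC on either strand, the hexamer that ZFP57 binds when its CpG is methylated. The Meg3 window lies at chr12:110778956-110779255 on the plus strand, the Plagl1 window at chr10:12810388-12810687 on the plus strand, and the Mest window, the second of 3 for that gene, at chr6:30687800-30688099 on the plus strand. The Grb10 window lies at chr11:11937374-11937673 on the minus strand, the Snrpn window, the last of 4, at chr7:67150036-67150335 on the minus strand, and the Kcnq1ot1 window at chr7:150482403-150482702 on the minus strand.
Meg3: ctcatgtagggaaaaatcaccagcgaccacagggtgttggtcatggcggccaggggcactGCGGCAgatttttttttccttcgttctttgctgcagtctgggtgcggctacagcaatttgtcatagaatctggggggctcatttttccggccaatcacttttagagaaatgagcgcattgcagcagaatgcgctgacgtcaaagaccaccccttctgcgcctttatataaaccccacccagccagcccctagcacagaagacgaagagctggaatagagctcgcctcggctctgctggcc
Plagl1: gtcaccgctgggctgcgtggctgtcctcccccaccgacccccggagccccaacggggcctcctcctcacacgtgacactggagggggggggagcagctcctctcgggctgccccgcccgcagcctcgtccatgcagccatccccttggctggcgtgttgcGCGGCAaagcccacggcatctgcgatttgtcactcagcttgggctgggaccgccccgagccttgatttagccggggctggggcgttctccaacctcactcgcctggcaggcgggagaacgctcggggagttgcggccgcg
Mest: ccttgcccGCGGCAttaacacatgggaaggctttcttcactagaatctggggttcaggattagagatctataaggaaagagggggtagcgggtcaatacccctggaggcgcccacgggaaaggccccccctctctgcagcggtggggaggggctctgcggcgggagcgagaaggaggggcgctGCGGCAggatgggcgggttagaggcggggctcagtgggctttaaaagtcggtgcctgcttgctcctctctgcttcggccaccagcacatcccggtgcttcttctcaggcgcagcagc
Grb10: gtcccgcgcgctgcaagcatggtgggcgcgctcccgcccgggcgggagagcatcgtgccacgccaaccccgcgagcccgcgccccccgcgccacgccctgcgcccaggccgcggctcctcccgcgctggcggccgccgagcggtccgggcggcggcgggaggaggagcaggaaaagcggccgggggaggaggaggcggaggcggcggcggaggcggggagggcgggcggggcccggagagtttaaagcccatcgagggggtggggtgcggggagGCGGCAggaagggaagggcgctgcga
Snrpn: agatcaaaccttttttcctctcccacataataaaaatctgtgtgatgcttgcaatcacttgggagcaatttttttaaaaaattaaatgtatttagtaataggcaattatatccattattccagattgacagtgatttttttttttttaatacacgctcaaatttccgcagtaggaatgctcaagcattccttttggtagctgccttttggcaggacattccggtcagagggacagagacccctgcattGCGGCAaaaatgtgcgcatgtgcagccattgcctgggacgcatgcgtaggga
Kcnq1ot1: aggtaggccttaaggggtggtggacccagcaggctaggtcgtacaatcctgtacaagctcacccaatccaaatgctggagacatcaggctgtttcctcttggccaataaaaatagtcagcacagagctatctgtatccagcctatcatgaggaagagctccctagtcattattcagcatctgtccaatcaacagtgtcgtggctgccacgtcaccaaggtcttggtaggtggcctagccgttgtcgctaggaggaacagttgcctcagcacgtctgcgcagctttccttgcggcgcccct

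TGCCGC was present in 6 of the 16 windows, against 11.6% of the 32851 RefSeq windows of the same length. The 6 windows belong to Meg3, Plagl1, Grb10, Snrpn and Mest, and the 2 of Mest start 3 bases apart and share their sequence. The letters CCATNTT, the core of the YY1 element, were in 1 of the 16 windows, a second Grb10 window, against 16.1% of all windows. Both strands were searched for each motif, and no member window held both. The median CpG count was 9 per member window and 7 over all windows. It ranged from 1 CpG in a second Meg3 window to 45 in the Grb10 window printed above, with 34 in the Igf2r window and 26 in the Plagl1 window. A match of letters is a description of the window, and binding of ZFP57 or YY1 was not measured.

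H3K27me3 regions overlapped most of these genes in each list, with the fewest in DKO female liver. In control male liver a region overlapped 9 of the 10 genes, all but Snrpn, where regions overlapped 37.5% of all annotated genes. The count was 8 in DKO male liver (40.8% of all genes), 8 in control female liver (39%) and 6 in DKO female liver (36.6%). At least 50% of the span was covered for 6 members in control male liver (29.2% of all genes), 7 in DKO male liver (31.2%), 5 in control female liver (30.3%) and 4 in DKO female liver (28.5%). The median coverage of the members was 54.7% in control male, 83.1% in DKO male, 41.2% in control female and 24.2% in DKO female liver, whereas the median over all annotated genes was 0 in each list.

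A difference of 25 percentage points or more between control and DKO liver of the same sex was counted as a change. It is a change in called extent, and the strength of the mark inside regions is not in the lists. Regions took up 28.9% of the genome in control male, 28.3% in DKO male, 27.4% in control female and 26.6% in DKO female liver. In males no member fell, against 6.12% of all genes, and 3 members rose, namely Meg3, Peg3 and Grb10, against 9.01%. From 50 points only 1 member, Peg3, rose in males, against 6.5% of all genes, and none fell, against 4.42%. In females Meg3 fell, 1 of 10 against 8.05% of all genes, and none rose, against 5.98%. From 50 points none fell in females, against 5.8%, and none rose, against 3.87%. The median change over the members was 0 in males and -0.626 points in females, beside 0 over all genes in both sexes. With only the widest 50% of regions of each list kept, the Meg3 change in males was 84.4 points in place of 36.3, and the Peg3 change in males and the Meg3 change in females were both 0. Peg10 then fell in males, 1 of 10 against 5.8% of all genes, and Meg3 and Grb10 rose, 2 of 10 against 7.67%, whereas in females none fell, against 7.73%, and none rose, against 4.96%. With all regions kept, no member changed by 25 points or more in the same direction in both sexes, where 2.63% of all genes fell and 2.89% rose in both. Meg3 changed by that much in both sexes, in opposite directions. Over the same comparison the endothelial markers covered to at least 50% went from 4 to 1 of 4 and the hepatocyte markers from 0 to 2 of 6, in both sexes, and the part of this in the members' values was not tested. Nearest to the threshold were Meg3 in females, at -26 points and counted, and Peg10 in males, at -24.2 points and not counted.

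**Figure D1:**
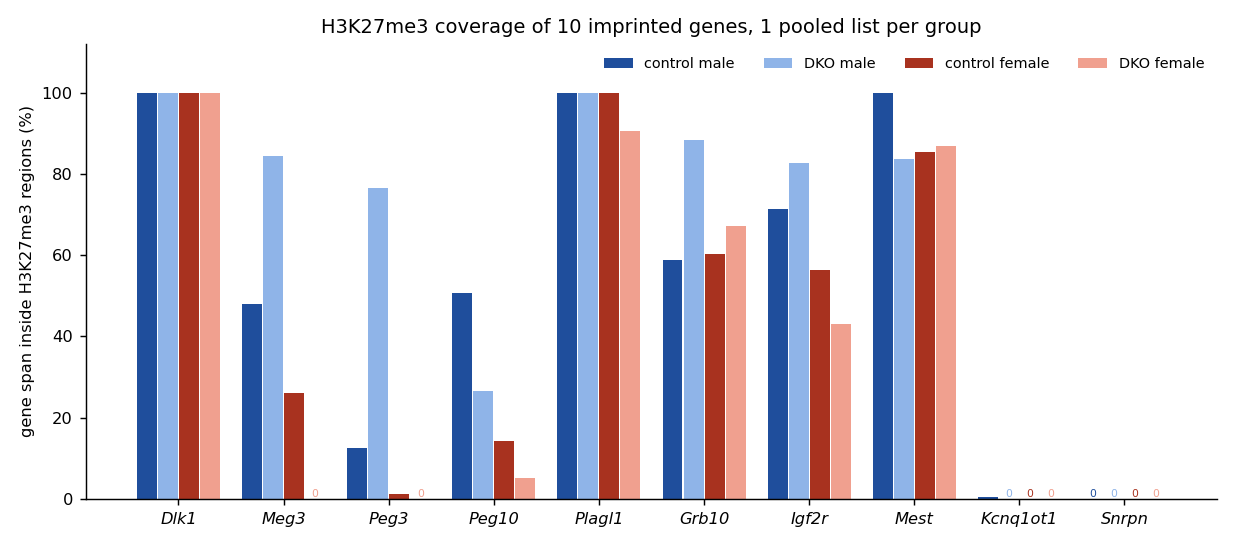
Percent of each gene span inside H3K27me3 regions (vertical axis) for the 10 genes, with a bar for each of the 4 pooled lists and no error bars because there are no replicates. Meg3 and Peg3 reach 84.4% and 76.6% in DKO male liver and 0 in DKO female liver, whereas Dlk1 stands at 100% in all lists.

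The genes that act as noncoding RNAs behaved differently from each other. Meg3, a maternally expressed long noncoding RNA of the Dlk1-Dio3 domain (chr12:110779211-110809936, plus strand), was covered to 48.1% in control male, 84.4% in DKO male, 26% in control female and 0% in DKO female liver. Both knockout lists thus lie outside the span between the control values, at its opposite ends. In the controls the region sat over the Meg3 start, 20 kb wide in males and 15.6 kb in females, and ran 14.8 kb and 7.99 kb into the gene. In neither knockout list did the start lie in a region. In DKO male liver a 46.4 kb region began 4.79 kb after the start and covered the body and what follows it, and with regions within 5 kb merged it was 104 kb wide while the control regions kept their widths. In DKO female liver the start was 8.41 kb from the nearest region. The promoter window of Meg3 printed above, with its TGCCGC match, accordingly lay inside a region in both control lists and in neither knockout list.

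H3K27ac peaks within 10 kb of Meg3 numbered 2 in control male, 3 in DKO male, 4 in control female and 4 in DKO female liver. A pair of them was shared by all 4 lists, and its centres lay 9.64 and 8.77 kb upstream of the start in control male, 9.48 and 8.77 kb in DKO male, 9.54 and 8.66 kb in control female and 9.49 and 8.78 kb in DKO female liver. No H3K27ac peak lay within 1 kb of the Meg3 start in any list. There were 4, 3, 3 and 3 H3K4me1 peaks in these lists, and a peak centred 0.626 kb after the start in DKO male and 0.53 kb after it in DKO female liver overlapped no peak of the control list of that sex.

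Kcnq1ot1, the paternally expressed antisense RNA that starts in an intron of Kcnq1 and silences neighbours such as Cdkn1c, is not part of the annotation. Its start was placed by its RefSeq promoter window, and its end by the RefSeq length of 83437 bp (chr7:150399016-150482452, minus strand), so the far end is approximate. Its body was almost free of called H3K27me3, with 0.542% covered in control male liver and 0 in the other 3 lists. The region of control male liver, 177.6 kb wide, ended 0.451 kb inside the start and extended away from the transcript over the 3-prime part of Kcnq1 and over Cdkn1c. Between the start and the nearest region lay 17.9 kb in DKO male, 29.5 kb in control female and 126 kb in DKO female liver. Coverage of Kcnq1 was 70.7% in control male, 50.6% in DKO male, 51% in control female and 15.9% in DKO female liver, whereas Cdkn1c, the cell cycle inhibitor at the far end, was covered to 100% in all 4.

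An H3K27ac peak stood just inside the Kcnq1ot1 start in every list. It was 1282 bp wide in control male, 1382 bp in DKO male, 1414 bp in control female and 1259 bp in DKO female liver, and its centre lay 0.699, 0.737, 0.765 and 0.674 kb after the start. Counting all peaks within 10 kb of the transcript, H3K27ac gave 1, 3, 4 and 1 in that order, and the H3K4me1 count 3, 3, 5 and 1.

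**Figure D2:**
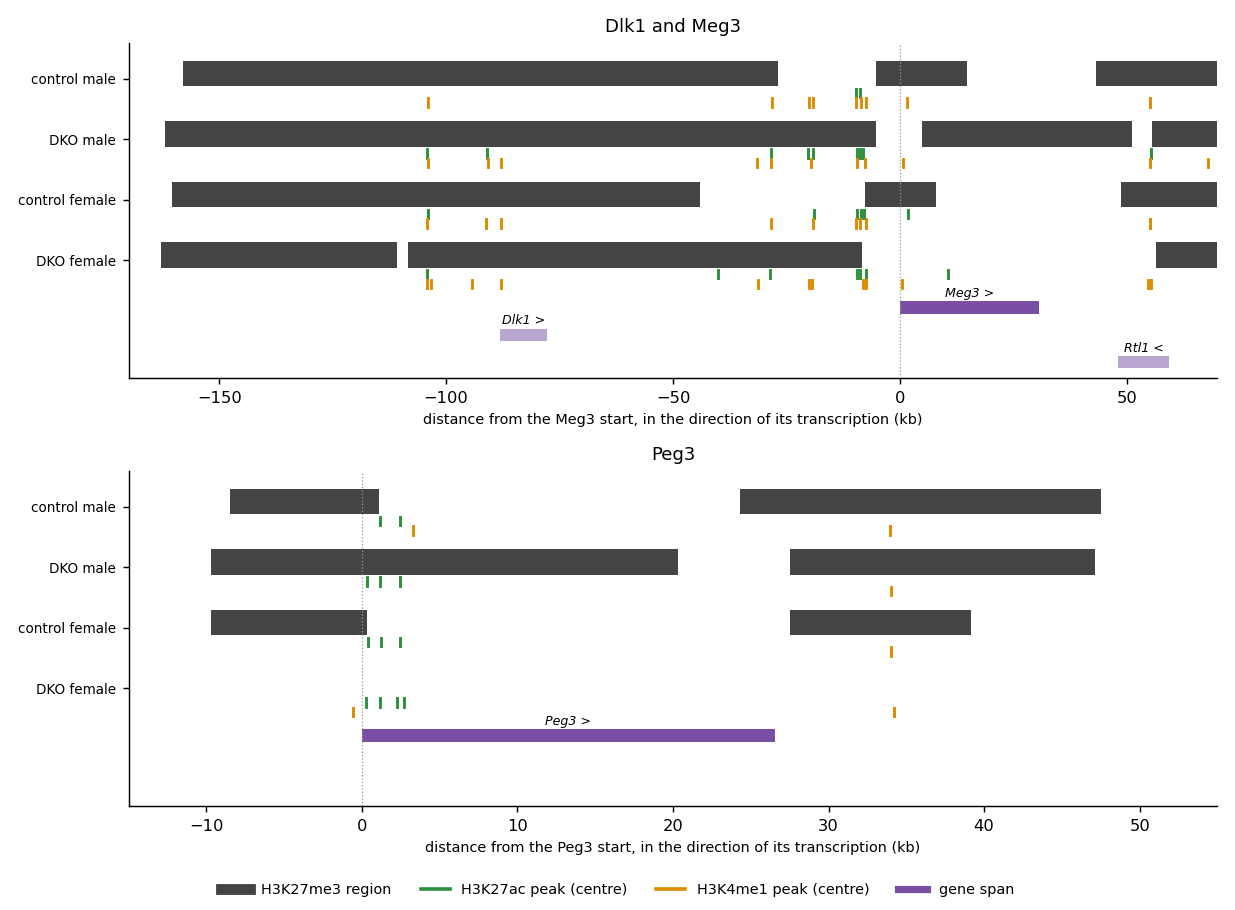
Regions of H3K27me3 (grey bars) and centres of H3K27ac (green) and H3K4me1 (orange) peaks in the 4 pooled lists, by distance in kb from the Meg3 start (top, with Dlk1 upstream) and from the Peg3 start (bottom), with gene spans in purple. At Meg3 the region over the start seen in both controls is missing from both DKO lists, and at Peg3 the DKO female list has no region at all.

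Among the genes of growth factor signalling, Dlk1, a transmembrane protein of the Notch ligand family that marks fetal hepatoblasts (chr12:110691033-110701546, plus strand), was covered to 100% in all 4 lists. The region that holds it was 131.2 kb wide in control male, 156.8 kb in DKO male, 116.4 kb in control female and 100 kb in DKO female liver. With regions within 5 kb merged, that of DKO female liver was 154.4 kb wide and the others kept their widths. The male knockout region ran 83 kb past the Dlk1 start, against 61.4 kb in control male, and the female knockout region ran 79.8 kb past it, against 44.2 kb in control female liver, so the edge that faces Meg3 lay farther out in both knockouts. A single H3K27ac peak, 2.75 kb upstream of the start, was found within 10 kb of Dlk1, and only in DKO male liver. The H3K27ac list of DKO male liver was the longest, with 55930 peaks. H3K4me1 peaks numbered 0, 2, 2 and 2, and that nearest the start, 0.255, 0.243 and 0.268 kb after it, was in every list except control male.

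Grb10, an adapter protein that dampens signalling from the insulin and growth factor receptors (chr11:11830511-11938686, minus strand), was covered to 58.7% in control male, 88.3% in DKO male, 60.2% in control female and 67.2% in DKO female liver. Its start lay inside a region in all 4. The added coverage in DKO male liver was in the 3-prime part, where the region ran 95.5 kb past the start against 63.5 kb in control male liver. In DKO female liver the single control region, 120 kb wide, was replaced by regions of 71.2 kb and 42.4 kb, and the second reached 75.5 kb past the start against 65.1 kb in control female liver. With regions within 5 kb merged these were a single region of 116.4 kb, so the split rests on a short gap.

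H3K27ac peaks at Grb10 numbered 9 in control male, 13 in DKO male, 10 in control female and 9 in DKO female liver, the most of any member. Most lay 64.2 kb or more from the start, in the part of the gene that the control regions leave free. A peak 0.83 kb after the start in DKO male liver and peaks 0.809 and 1.99 kb after it in DKO female liver had no overlapping peak in the control list of their sex. H3K4me1 peaks numbered 14, 13, 8 and 8.

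Igf2r, the receptor that takes up and degrades IGF2 (chr17:12875272-12962530, minus strand), was covered to 71.4% in control male, 82.6% in DKO male, 56.4% in control female and 43.1% in DKO female liver. The female difference turned to 10.1 points higher in DKO liver when only the widest 50% of regions were kept. Its start was 24.9 kb from the nearest region in control male, 9.73 kb in control female and 16.5 kb in DKO female liver, and lay inside a 71.6 kb region only in DKO male liver. The antisense RNA Airn starts 28.4 kb into Igf2r. H3K27ac peaks numbered 2 in control male, 10 in DKO male, 5 in control female and 6 in DKO female liver, and all 10 of DKO male liver overlapped an H3K27me3 region of that group, against 0 of 2, 1 of 5 and 1 of 6 in the others. In all lists a peak overlapped the 1 kb on either side of the Igf2r start. Peaks near the Airn start, centred 27.4 and 28 kb into Igf2r in DKO male, 28.9 kb in control female and 28 kb in DKO female liver, were missing from the control male list. That list was the shortest for H3K27ac, with 29359 peaks against 55930 in DKO male liver. H3K4me1 peaks numbered 4, 7, 7 and 4.

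**Figure D3:**
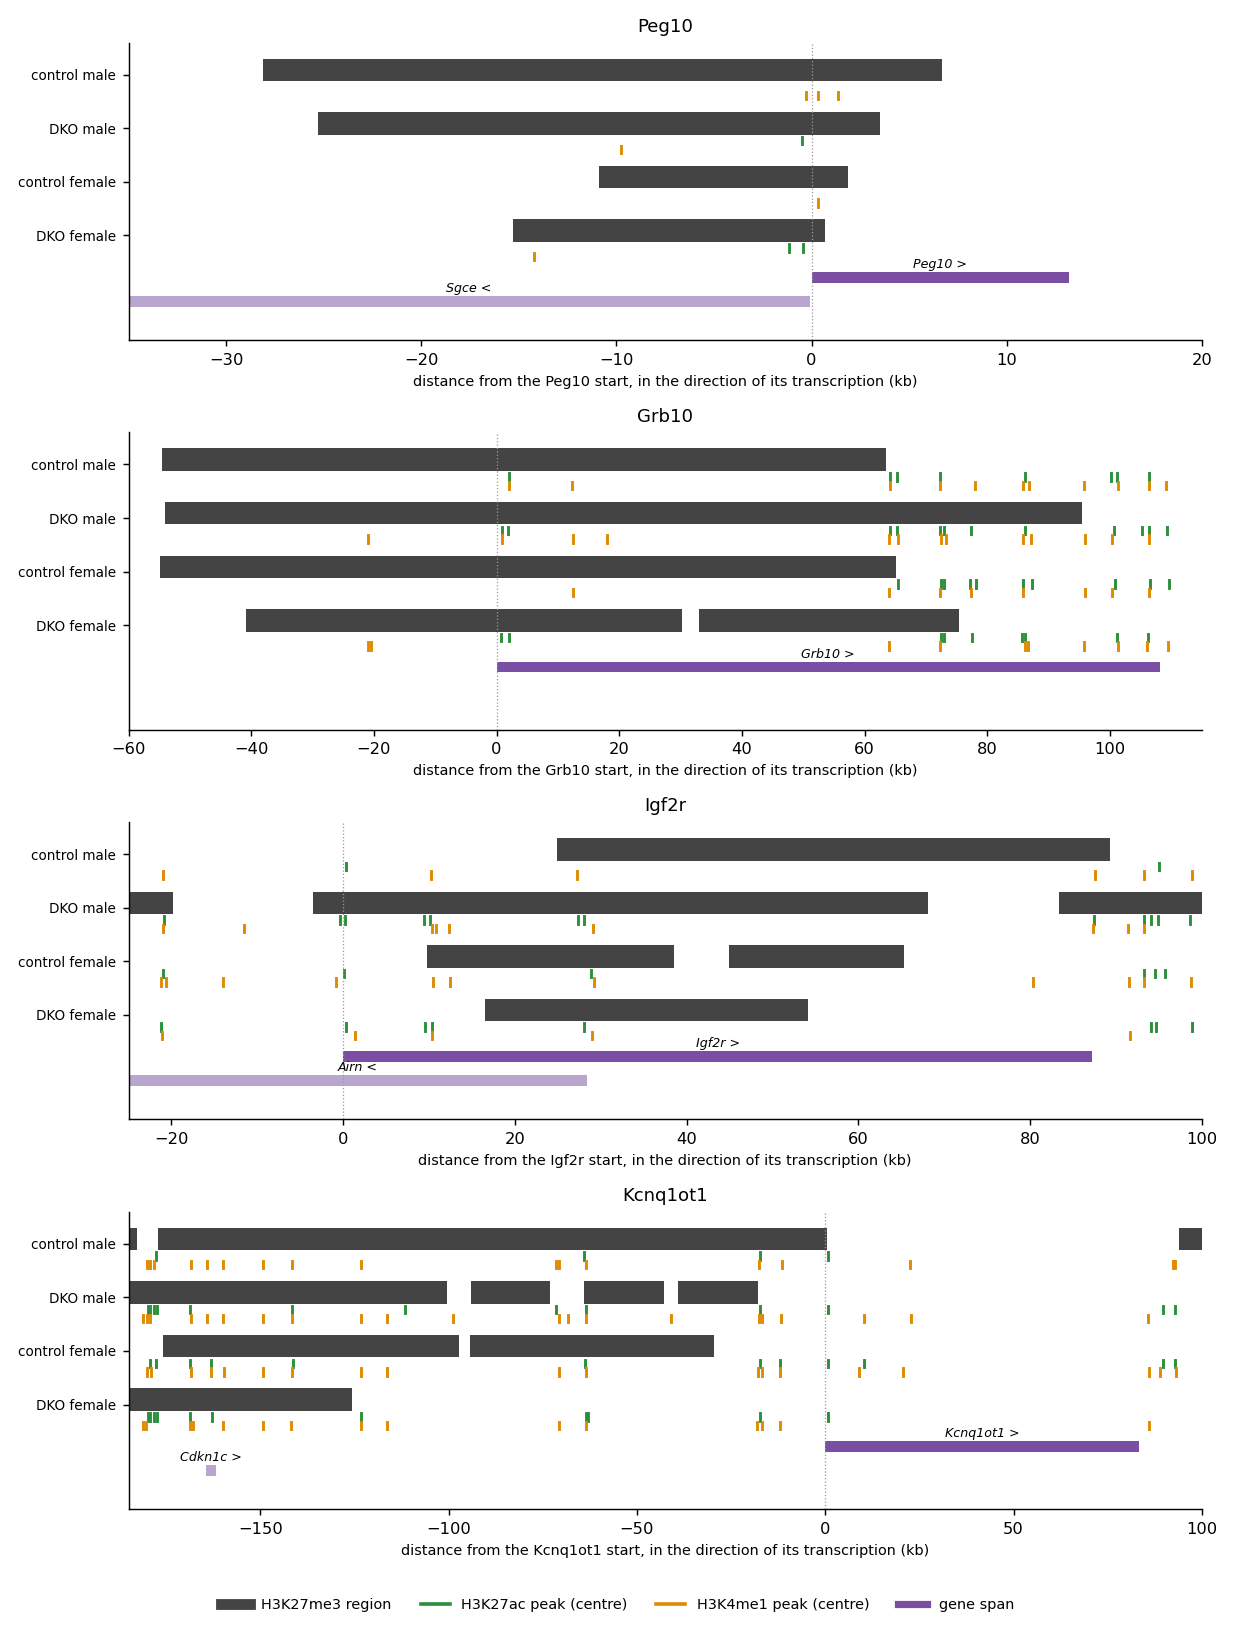
The same marks by distance in kb from the starts of Peg10, Grb10, Igf2r and Kcnq1ot1, with neighbouring genes in light purple and arrowheads for the direction of transcription. At Igf2r the start falls inside a region only in DKO male liver, and at Kcnq1ot1 no more than 0.542% of the transcript lies in regions while the H3K27ac peak at its start is present in all 4 lists.

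The zinc finger genes Peg3 and Plagl1 contrasted. Peg3, paternally expressed (chr7:6656603-6683132, minus strand), was covered to 12.6% in control male, 76.6% in DKO male, 1.25% in control female and 0% in DKO female liver. Control male liver had a 9.6 kb region over the start and a 23.2 kb region that touches the far end, and control female liver had a 10 kb region that reached only 0.331 kb into the gene. In DKO male liver a 30 kb region ran from 9.67 kb upstream to 20.3 kb inside. In DKO female liver the nearest region was 279 kb from the start, and the whole span of Peg3, Zim1 and Usp29, 288 kb long, held no region at all, against 15% coverage in control female, 30.7% in control male and 28.7% in DKO male liver.

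Peg3 nonetheless had H3K27ac peaks near its start in all lists, 2 in control male, 3 in DKO male, 3 in control female and 4 in DKO female liver. The peak nearest the start, centred 0.33 kb after it in DKO male, 0.399 kb in control female and 0.245 kb in DKO female liver, was not called in control male liver, where the first lay 1.15 kb inside. H3K4me1 peaks numbered 2, 1, 1 and 2, and a peak 33.9 to 34.2 kb after the start, beyond the gene, was common to the 4 lists. Plagl1, also paternally expressed and a regulator of cell cycle arrest (chr10:12810497-12851500, plus strand), was covered to 100% in 3 lists and to 90.5% in DKO female liver. Its regions measured 106.4 kb in control male, 110.8 kb in DKO male, 59.2 kb in control female and 105.6 kb in DKO female liver. With regions within 5 kb merged that of DKO female liver was 140.8 kb wide, and the female difference in coverage, -9.51 points, became 0. Its only H3K27ac peak was in control female liver, 288 bp wide and 0.227 kb after the start, and H3K4me1 peaks numbered 1, 1, 0 and 0.

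Peg10, a paternally expressed gene derived from a retrotransposon and needed in the placenta (chr6:4697306-4710514, plus strand), was covered to 50.7% in control male, 26.5% in DKO male, 14.3% in control female and 5.26% in DKO female liver. DKO minus control, the difference was -24.2 points in males and -9.08 points in females. With the widest 50% of regions the male difference was -50.7 points, past the threshold. With equal numbers of the widest regions per list the female value was 5.26 points higher in DKO liver, and with the widest 50% of regions the female difference was 0, so the female direction depends on narrow regions. The start stayed inside a region in every list, and the edge inside the gene lay 6.69, 3.49, 1.89 and 0.694 kb after the start in that order. Sgce, transcribed the other way, starts 102 bp away. Upstream of the Peg10 start, an H3K27ac peak centred 0.498 kb away in DKO male and 0.427 kb away in DKO female liver overlapped no peak of the control list of its sex, and neither control list held any H3K27ac peak within 10 kb of Peg10. The H3K4me1 peaks ran the other way. A peak 0.315 kb after the start in control male liver and 0.323 kb after it in control female liver was missing from both knockout lists, and the counts were 3, 1, 1 and 0.

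Mest, paternally expressed and related to alpha/beta hydrolases (chr6:30673547-30698457, plus strand), was covered to 100% in control male, 83.7% in DKO male, 85.3% in control female and 86.9% in DKO female liver. Its region was 66.8 kb wide in control male, 50 kb in control female and 53.6 kb in DKO female liver, and 236.8 kb in DKO male liver, where it began 216 kb upstream. With regions within 5 kb merged the control male region was 242.4 kb wide and the other 3 kept their widths, so the male difference in width rests on a short gap in the control list. No list held an H3K27ac peak within 10 kb of Mest. H3K4me1 peaks numbered 1, 2, 0 and 0, with a peak 14.7 kb after the annotated start in control male and 14.5 kb in DKO male liver, beside the TGCCGC-bearing window printed above.

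Snrpn, which encodes a spliceosomal protein and is paternally expressed (chr7:67127388-67285105, minus strand), was covered to 0% in all 4 lists. A single H3K27ac peak was found for it in every list, 788 bp wide in control male, 905 bp in DKO male, 1115 bp in control female and 874 bp in DKO female liver. It lay 136 kb inside the annotated span, within 1 kb of the start of the Snrpn window printed above, and not at the first start of the annotation. H3K4me1 peaks numbered 2, 2, 1 and 0. Kcnq1ot1 and Snrpn thus shared an H3K27ac peak at the same place in all lists and H3K27me3 over at most 0.542% of the span.

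**Figure D4:**
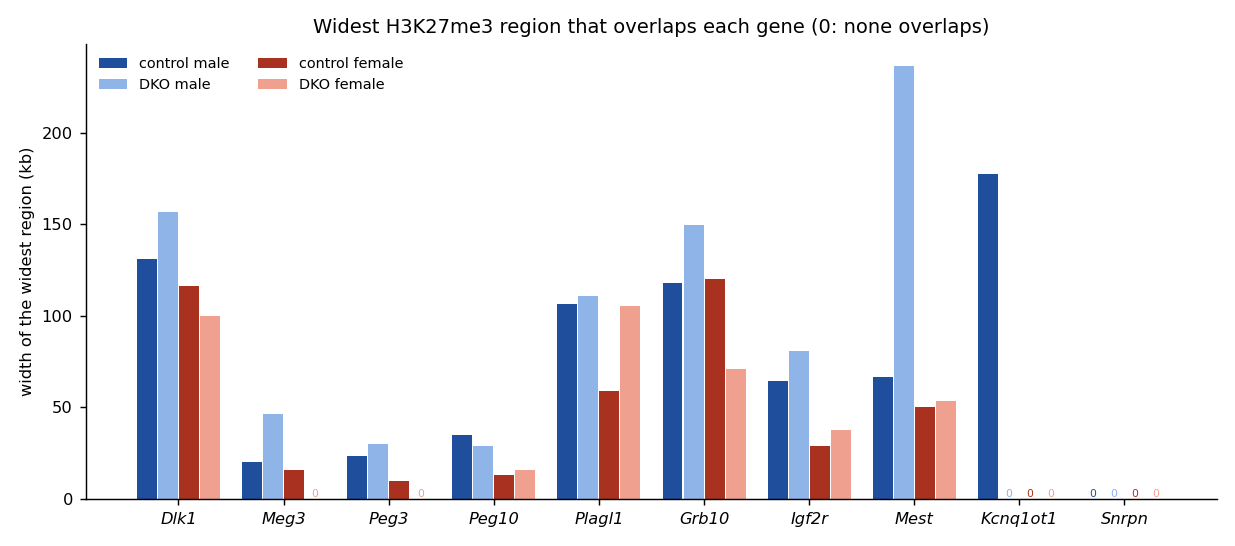
Width in kb of the widest H3K27me3 region that overlaps each gene in the 4 pooled lists, with 0 where none overlaps. The widest are 236.8 kb at Mest in DKO male and 177.6 kb at Kcnq1ot1 in control male liver, and with regions within 5 kb merged the region at Mest in control male liver is the widest, at 242.4 kb.

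The regions that hold the members were wide for their lists. The median of the widest region at each member that had any was 66.8 kb in control male, 95.8 kb in DKO male, 39.4 kb in control female and 62.4 kb in DKO female liver, where the medians over all regions were 30.4, 31.6, 23.6 and 30.4 kb. With regions within 5 kb merged the members' medians were 106.4, 107.4, 39.4 and 85 kb, so that the male lists hardly differed. A wider region is more likely to overlap a gene, so these medians describe the members and are no comparison with other genes. Male and female lists also differed at the members. Coverage was higher in males by 25 points or more for Peg10 among the controls, 1 of 10 against 6.39% of all genes, and for Meg3, Peg3 and Igf2r among the knockouts, 3 of 10 against 10.4%. No member was higher in females by that much, against 6.88% of all genes in controls and 5.81% in knockouts. All 10 members lie on autosomes, whereas these shares also cover genes of the X chromosome. H3K27me3 regions on the X numbered 50 in control male, 33 in DKO male, 2608 in control female and 1573 in DKO female liver. Shares over autosomes alone were not computed.

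At the starts of the members, H3K27me3 and H3K27ac were each counted. The start lay inside a region for 8 members in control male liver (32% of all genes), 7 in DKO male (35.2%), 7 in control female (33.8%) and 5 in DKO female liver (31.7%). An H3K27ac peak within 1 kb of the start was found for 3 members in control male (30.5%), 5 in DKO male (36%), 4 in control female (35.2%) and 5 in DKO female liver (35.5%). Over protein-coding genes alone these shares were 44.8%, 51.8%, 50.8% and 51.4%. The counts depend on the start chosen, and over any annotated transcript start they were 5 in control male (32.2% of all genes), 6 in DKO male (38%), 7 in control female (37.1%) and 6 in DKO female liver (37.5%). Both together were found for Peg3 and Kcnq1ot1 in control male liver, 2 of 10 against 5.18%, and for Peg3, Peg10, Grb10 and Igf2r in DKO male liver, 4 of 10 against 12%. They were Peg3 and Plagl1 in control female liver, 2 of 10 against 8.22%, and Peg10 and Grb10 in DKO female liver, 2 of 10 against 8.79%. Of protein-coding genes alone, 7.59% had both in control male, 17.1% in DKO male, 11.8% in control female and 12.7% in DKO female liver. At the Grb10 RefSeq window printed above, in place of the annotated start, both marks were found in control male liver as well.

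Counting all peaks within 10 kb, H3K27ac was found at 6 members in control male liver (46.8% of all genes), 8 in DKO male (55.6%), 7 in control female (53.5%) and 7 in DKO female liver (54.7%). The peaks summed over the members were 17, 35, 28 and 27 in that order. The control male list is itself short, with 29359 peaks against 49702 to 55930 in the other H3K27ac lists. A peak with no overlapping control peak, called gained, was found at 7 members in males (37.8% of all genes) and 4 in females (22.3%), and a control peak with no overlapping knockout peak, called lost, at 1 member in males, Grb10 (7.13%), and 5 in females (24.3%). Over protein-coding genes alone the shares with gained peaks were 47.5% in males and 28.7% in females. Those with lost peaks were 9.54% and 31.8%. When every H3K27ac list was cut to the length of the shortest by keeping its widest peaks, gained peaks were at 4 members in males (17.5% of all genes) and 3 in females (13.6%), and lost peaks at 1 in males (16.7%) and 3 in females (15.8%). Within the gene span alone, 3 members had gained peaks (21.2% of all genes) and 0 had lost peaks (4.01%) in males, and in females 3 had gained (12.4%) and 5 had lost peaks (13.5%).

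H3K4me1 was found within 10 kb of 9 members in control male liver (61% of all genes), 10 in DKO male (62.2%), 8 in control female (57.8%) and 6 in DKO female liver (57.6%). The sums over the members were 34, 35, 28 and 20 peaks. The whole H3K4me1 lists held 69797, 67913, 54798 and 51417 peaks in that order, and the shortest, of DKO female liver, came from 3 livers. Gained peaks were at 7 members in males (34.6%) and 5 in females (30.8%), and lost peaks at 6 in males (35.4%) and 7 in females (35.7%). Over protein-coding genes alone the shares with gained peaks were 44.6% in males and 39.8% in females. Those with lost peaks were 45.7% and 46.4%. Every H3K4me1 list was also cut to the length of the shortest by keeping its widest peaks. Gained peaks were then at 5 members in males (31% of all genes) and 5 in females (32.1%). Lost peaks were then at 6 in males (30.4%) and 6 in females (33.5%). Within the gene span alone, with the full lists, gained peaks were at 6 members in males (19.7%) and 3 in females (16.9%), and lost peaks at 5 in males (19.4%) and 5 in females (19.9%). Peg10 and Snrpn had H3K4me1 peaks in every group but DKO female, and Plagl1 and Mest had none in either female list.

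**Figure D5:**
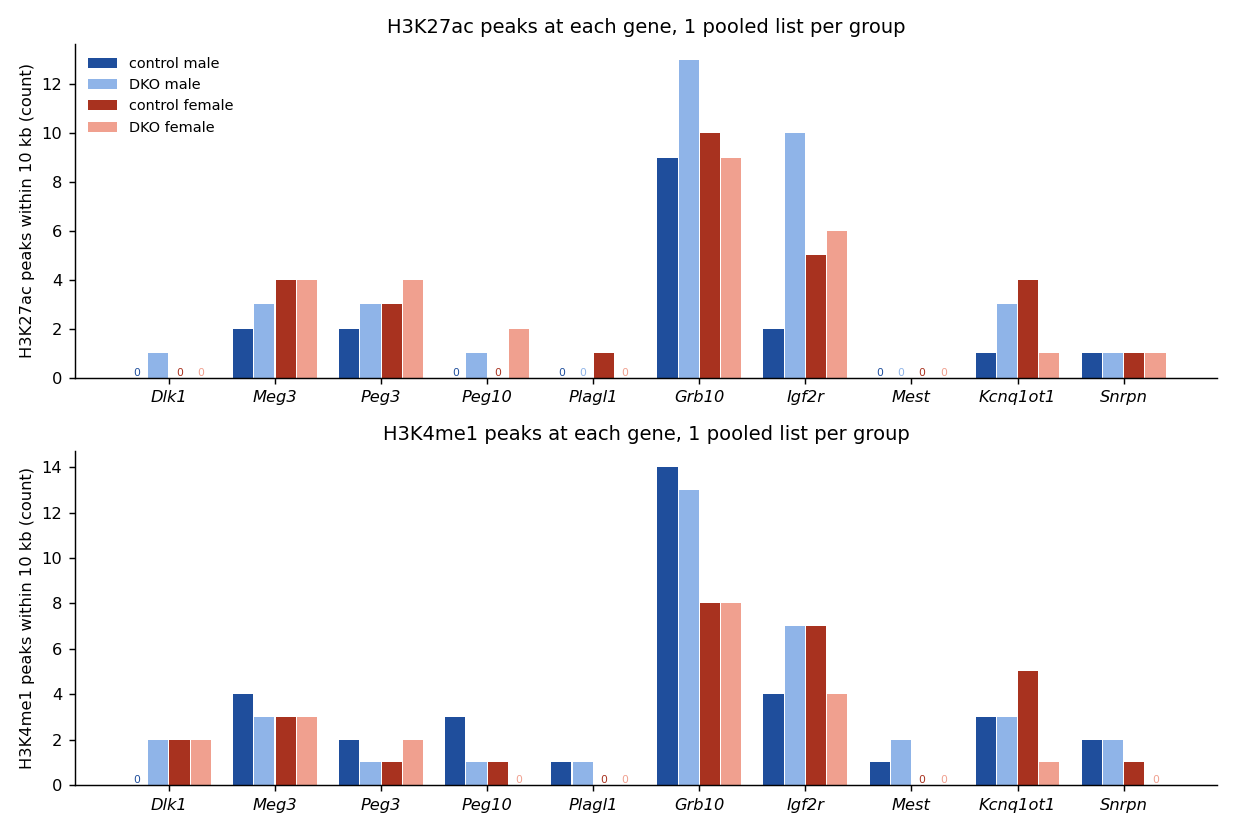
Number of H3K27ac peaks (top) and H3K4me1 peaks (bottom) within 10 kb of each gene in the 4 pooled lists, with no error bars because there are no replicates. Grb10 and Igf2r hold most of the peaks, and Mest has no H3K27ac peak in any list.

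In DKO male liver the active peaks at the members mostly lay inside H3K27me3 regions called in the same group. Of the 35 H3K27ac peaks there, 26 overlapped a region (74.3%), against 33.6% of the 55930 peaks of that list. The corresponding shares were 3 of 17 in control male liver (17.6%, against 15.5% of the list), 4 of 28 in control female (14.3% against 19.1%) and 9 of 27 in DKO female liver (33.3% against 22.2%). Igf2r gave 10 and Grb10 8 of the 26. For H3K4me1 it was 71.4% of 35 peaks in DKO male liver against 39.9% of the list, 32.4% against 27.7% in control male, 35.7% against 25.9% in control female and 25% against 27.9% in DKO female liver. This measure was chosen after the other values were known. In DKO male liver the members' median H3K27me3 coverage was 83.1%, where regions took up 28.3% of the genome. Peaks at the members thus had more room to fall in a region than peaks of the whole list. The list shares are therefore no matched comparison.

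The same measures were taken for 63 other annotated imprinted genes, 44 in the domains of the members and 19 elsewhere. Coverage fell by 25 points or more for 4 of them in males (6.12% of all genes) and 6 in females (8.05%), and rose for 7 in males (9.01%) and 2 in females (5.98%). In all 4 lists 13 were covered to 100%, among them Cdkn1c, Phlda2, Ascl2, Dio3 and Magel2, against 13.1% of all genes, and 14 stayed at 0, against 47.2%. Changes of that size in the same direction in both sexes were found for 3 of the 63 genes, and 2 fell, against 2.63% of all genes, and 1 rose, against 2.89%. They lie in the Dlk1-Dio3 domain downstream of Meg3. Rtl1, a retrotransposon-derived gene, was covered to 100% in control male, 60.5% in DKO male, 94.6% in control female and 26.4% in DKO female liver. Mirg, a noncoding host of microRNAs, was covered to 100%, 0%, 55.7% and 0% in that order. Rian, a noncoding RNA between them, went the other way, with 34.4%, 78.7%, 56.5% and 82.8%, and its female difference of 26.3 points was just past the threshold. Named after their values were seen, the nested pair Nnat and Blcap stood at 0% in control male and 100% in DKO male liver, with Nnat at 0% in both female lists and Blcap at 0% in control female and 17.5% in DKO female liver.

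Taken over whole domains, from the lowest start to the highest end of the imprinted genes listed for each, coverage differed between control and knockout by -8.2 to 18.6 points in males, the extremes at the Kcnq1ot1 and Igf2r domains, and by -18.4 to 9.97 points in females, the extremes at the Kcnq1ot1 and Peg10 domains. The Dlk1-Dio3 domain, 828 kb long, was covered to 33.6% in control male, 33.7% in DKO male, 29.4% in control female and 25.5% in DKO female liver, although Meg3, Rtl1, Mirg and Rian within it moved in different directions. The Kcnq1ot1 domain, 790 kb long, was covered to 61.2%, 53%, 50.1% and 31.7% in that order, lower in the knockout of both sexes. The Igf2r domain, 448 kb long, was covered to 65.1%, 83.8%, 60.6% and 55.6%. The Grb10 domain, 651 kb long, was covered to 38.7%, 45%, 36.7% and 22.6%, and the Peg10 domain, 1747 kb long, to 30.3%, 35.8%, 17% and 27%. The Snrpn domain, 3696 kb long, was covered to between 4.24% and 6.39%. H3K27ac peaks inside the Kcnq1ot1 domain numbered 11, 41, 38 and 30, and inside the Dlk1-Dio3 domain 20, 42, 30 and 46, where the whole lists held 29359 peaks in control male and 49702 to 55930 in the other groups. Domain counts at equal list length were not made.

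As checks of the labels, H3K27me3 regions on the Y chromosome numbered 6 and 5 in the male lists and 0 in both female lists. Hepatocyte genes such as Alb, Ttr, Apob and Hnf4a had an H3K27ac peak within 1 kb of the start, 4 of 6 in control male and 5 of 6 in the other groups. Endothelial markers had 0 of 4 in control male, 2 in DKO male, 1 in control female and 3 in DKO female liver, macrophage markers 0 of 4 in all, stellate cell markers 1 or 2 of 4 and cholangiocyte markers 1 of 4. H3K27me3 covered at least 50% of the span of 4 of 4 endothelial markers in both control lists and 1 of 4 in both knockout lists, and of 0 of 6 hepatocyte markers in both control lists and 2 of 6 in both knockout lists. The macrophage markers stood at 2, 2, 2 and 1 of 4, the stellate cell markers at 3 of 4 and the cholangiocyte markers at 4 of 4 in all lists. Between 93.5% and 100% of the 50-base sequences of each member span occur once in the genome, so reads of the sequenced length can be placed over nearly all of it.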

How the data were processed

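Chromatin from individual livers was precipitated for H3K27me3 (2 µg of antibody with 10 µg of chromatin), H3K27ac (3 µg with 15 µg) and H3K4me1 (1.2 µg with 15 µg). Per the labels, reads were aligned to mm9 with Bowtie2 (2.3.2). The authors joined the 50 nt paired reads of all livers in a group before they called H3K27me3 regions with SICER (1.1, 400 bp windows, gaps up to 2400 bp) and peaks of the other marks with MACS2 (2.1.1, defaults). SICER can join windows across unmarked stretches, so region edges are coarse. The paper states 4 livers for the group listed here with 3. Deposited positions count from 0 and are given here from 1, and the last base of each SICER window was restored.

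Gene coverage means the share in percent of the GENCODE M1 span that regions occupy, and lists were compared by overlaps of at least 1 bp. The background is all 37273 genes of that annotation on the autosomes, X and Y. It includes noncoding genes, whereas the members other than Meg3 and Kcnq1ot1 are protein-coding, and it was not matched for gene length. For H3K27ac and H3K4me1 peaks, the shares over protein-coding genes alone were higher in every comparison for which they were computed. No test was run, since each group has 1 pooled list per mark. The 10 members, the other imprinted genes (69 listed, 63 annotated) and the markers were chosen with earlier results of these data known. Named genes are the 10 members, and those other imprinted genes whose coverage differed by 25 points or more in the same direction in both sexes. Other imprinted genes and neighbours that the text names, among them Kcnq1, Cdkn1c, Nnat and Blcap, fall outside this rule and were chosen after their values were seen. Mm9 is the NCBIM37 assembly, whose chromosome lengths contain every peak. Overlap, coverage and uniqueness counts were tested on simulated data. Programs were Python 3.11.15, NumPy 2.4.6, matplotlib 3.10.9 and samtools 1.23.1. The alternatives are those named under the dependence on processing. Results for 1 imprinted gene are not reported here.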

Additional observations from a re-analysis of the deposited data

Results flagged for a closer look

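Values that moved in opposite directions in male and female liver, knockout minus control, are given here. With 1 pooled list per group these differences between the sexes were not tested. H3K27me3 coverage of Meg3 differed by 36.3 points in males and -26 in females, a gap of 62.3 points. For Peg3 the differences were 64.1 and -1.25 points, a gap of 65.3, for Igf2r 11.2 and -13.3 points, a gap of 24.5, and for Mest -16.3 and 1.61 points, a gap of -17.9. With the widest 50% of regions the Igf2r difference in females was 10.1 points, so that both sexes had the same sign. The female differences of Mest and Peg3 are 400 bp and 332 bp of the span, no more than a single SICER window of 400 bp. With the span extended by 3 kb the Peg3 difference in females was -16.4 points and that of Mest 1.29 points, and over the Peg3 domain the female difference was -15 points. Among the 9 domains, 5 had opposite signs. The differences in males and females were 0.0966 and -3.91 points for Dlk1-Dio3, a gap of 4.01, 6.23 and -14.1 for Grb10, a gap of 20.3, 18.6 and -5.01 for Igf2r, a gap of 23.6, -1.02 and 2.76 for Mest, a gap of -3.78, and -0.411 and 2.15 for Snrpn, a gap of -2.56. The male signs of Dlk1-Dio3 and Snrpn thus rest on differences close to 0.

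The number of H3K27ac peaks within 10 kb differed by 4 in males and -1 in females at Grb10, a gap of 5. At Kcnq1ot1 it differed by 2 and -3, a gap of 5, and over all members by 18 and -1, a gap of 19. The peaks gained in males at Kcnq1ot1, centred 92.8 and 89.7 kb after the start, lay beyond the approximate far end. In females, lost peaks at 92.8 and 89.7 kb also lay beyond that end, and the lost peak at 10.2 kb lay inside the transcript. The control male H3K27ac list held 29359 peaks against 55930 in DKO male liver, and with lists of equal length the members with a gained peak in males went from 7 to 4 (17.5% of all genes). For H3K4me1 the differences were -1 and 1 at Peg3, a gap of -2, 3 and -3 at Igf2r, a gap of 6, and 1 and -8 over all members, a gap of 9. The DKO female H3K4me1 list was the shortest, with 51417 peaks against 54798 in control female liver, and came from 3 livers.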

How the results depend on the processing

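Of 108 recomputed counts and medians, 92 stayed within 1.5 times the reported value. Comparisons of 0 with 0 are among the 92, as are those without Kcnq1ot1, which could not differ. The tally is therefore no measure of stability. Keeping only the widest 50% of regions in each list gave 1 member whose coverage fell in males (5.8% of all genes) and 0 in females (7.73%). A change of 50 points left 1 member that rose in males (6.5% of all genes) and 0 that fell in females (5.8%), and among the other imprinted genes 1 that fell in males (4.42%), 3 that fell in females (5.8%) and 1 that rose in females (3.87%). Merging regions within 5 kb raised the median width in control male liver to 106.4 kb, beside 107.4 kb in DKO male liver, and turned the Plagl1 change in females from -9.51 points to 0. Counting peaks in the gene span alone gave 3 members with gained (21.2%) and 0 with lost H3K27ac (4.01%) in males and 3 with gained H3K4me1 in females (16.9%). Equal numbers of the widest H3K27ac peaks per list remove the difference in list length. They gave 4 members with a gained peak in males (17.5% of all genes) and 3 with a lost peak in females (15.8%). Over any annotated transcript start, 5 members had promoter H3K27ac in control males (32.2% of all genes) and 6 in DKO males (38%). The counts were 7 in control females (37.1%) and 6 in DKO females (37.5%). Any RefSeq window, an alternative chosen after seeing the data, gave 5 in each list, with no share computed for all genes. Peg10 has no RefSeq window and could not be counted there. At its annotated start, H3K27ac lay within 1 kb in both DKO lists and in neither control list. Over protein-coding genes alone, H3K27me3 coverage fell by 25 points or more for 6.07% in males and 7.59% in females. It rose by that much for 9.86% in males and 6.29% in females.

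The changes counted for Meg3, Peg3 and Grb10 kept their direction in 14 of 16 recomputations. In the others, among the widest 50% of regions, the Peg3 change in males and the Meg3 change in females were 0, because their narrow regions were removed. With the widest 50% of regions the Meg3 change in males rose from 36.3 to 84.4 points and that of Peg10 in males went from -24.2 to -50.7 points. With the span extended by 3 kb the Peg3 change in females went from -1.25 to -16.4 points. The same extension took the Kcnq1ot1 change in males from -0.542 to -3.86 points. Among other changes below 25 points, that of Igf2r in females turned from -13.3 to 10.1 points with the widest 50% of regions, and that of Peg10 in females from -9.08 to 5.26 points with equal numbers of the widest regions. Leaving out Kcnq1ot1, also added after seeing the data, could change none of the coverage counts, since at most 0.542% of it was covered. No paired analysis was possible because each group has 1 pooled list per mark. For the same reason no liver could be left out. The lists carry no score, so stricter calling thresholds could not be applied, and width stood in for strength.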
